A study of Arabidopsis thaliana with 6 samples.

Results

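The genes described here encode the multidrug and toxic compound extrusion (MATE) transporters of Arabidopsis thaliana, listed as 56 loci by membership of the family and not by their expression. Of these, 38 had a probe set of their own on the Affymetrix GeneChip array, out of 13356 genes to which the gene table used gave such a probe set. A further 9 members were covered only by probe sets shared with another gene, and 9 members were not analysed here because the gene table used held no probe set for them. The latter include the best known members of the family, DTX1, ALF5, TT12, FRD3 and EDS5, so nothing is said of their expression. Each of these 9 has a symbol in the RefSeq annotation, whereas none of the 38 measured members has one. The measured members are thus not a random part of the family.

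Leaf and callus were compared, each on 3 arrays that the methods describe as independent experiments, and all plants were Col-0 wild type. The leaf samples were taken from seedlings 20 days old. Calli are pluripotent cell masses, which the study, citing earlier work, describes as resembling the root-tip meristem. They came from leaf blades of seedlings of the same age, kept for 20 days on callus-inducing medium (CIM). This medium contains the auxin 2,4-D, the cytokinin kinetin and glucose. The groups thus differed at once in tissue, growth medium, hormones, attachment to the plant and time in culture, and the parts of these in any difference cannot be told apart. According to the labels both tissues had 16 h of light, whereas the methods place the explants in the dark. Expression is given as log2 signal of a probe set after RMA, an array method that corrects background, brings the arrays to a common distribution and summarizes the probes. Levels of different genes are not compared, since each probe set has its own affinity. A gene was called when limma, fitted over all 13356 genes, gave a Benjamini-Hochberg adjusted p under 0.05 together with a change of more than 2-fold. Each p sets the difference between the tissues against the spread between these arrays. In limma the spread of each gene is moderated with that of all genes.

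MATE transporters are membrane proteins that move organic molecules out of the cytoplasm, either out of the cell or into the vacuole or another organelle. In plants most are thought to be driven by proton gradients, which proton pumps of the plasma membrane and of the vacuolar membrane build up. Known cargoes of plant members include alkaloids and other toxic compounds, flavonoids, citrate, salicylic acid and abscisic acid, and some members are tied to chloride. The family is commonly divided into groups that are here called subfamilies I to IV.

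The array medians lay between 5.79 and 5.95, and replicates correlated across genes at 0.9967 or above in callus and 0.9949 or above in leaf. The actin control probe sets, which report on RNA integrity, differed between their 3' and 5' ends by 1.48 to 1.59 in callus and by 1.57 to 2.11 in leaf on the log2 scale, and its part in the results was not tested. All 8 measured markers of photosynthetic leaf cells were lower in callus, at levels of 3.88 to 6.90 in callus arrays against 11.8 to 13.7 in leaf arrays. The 3 measured markers of dividing cells were all higher in callus, at 6.39 to 7.39 against 4.30 to 5.16. Both measured guard cell markers, of 7 listed, were lower in callus, whereas neither of the 2 measured root hair markers, of 8 listed, passed the call rule. In such bulk tissue a smaller number of cells of a type and less RNA per cell cannot be told apart, and the part of these cell types in the results below was not tested.

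Among the 38 measured MATE genes, 8 were higher in callus (21.1%) and 6 were lower (15.8%). Over all genes, 16.4% were called higher and 13.2% lower, and 29.6% were called in either direction against 36.8% of the MATE genes. The median log2 fold change, callus minus leaf, was -0.13 in the MATE genes and 0.01 over all genes as deposited, and its sign depended on the scaling described below. Changes of single members ranged from -4.12 to 5.27. The callus and leaf arrays did not overlap for 24 of the 38 members (63.2%), against 66.0% of all genes, so the share of members that separated the tissues was near that of the array as a whole. The family thus held members that rose and members that fell, with most members between them. When each array was centred on TIP41, a gene used as an expression reference whose own deposited value was 0.59 higher in callus, 5 members were called higher (13.2%, against 9.41% of all genes) and 9 lower (23.7% against 20.9%), with a median of -0.72 against -0.58 over all genes. With the hybridization controls as reference 8 were higher (21.1% against 20.8%) and 5 lower (13.2% against 11.3%), with a median of 0.13 against 0.27. With the poly-A controls 10 were higher (26.3% against 34.1%) and 5 lower (13.2% against 8.21%), with a median of 0.63 against 0.77. The calls of the members thus shifted with those of the whole array. Each centring shifts the log2 fold changes of all genes by the same amount, which was smaller than the 2-fold threshold. No called member could therefore change direction under these scalings.

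**Figure D1:**
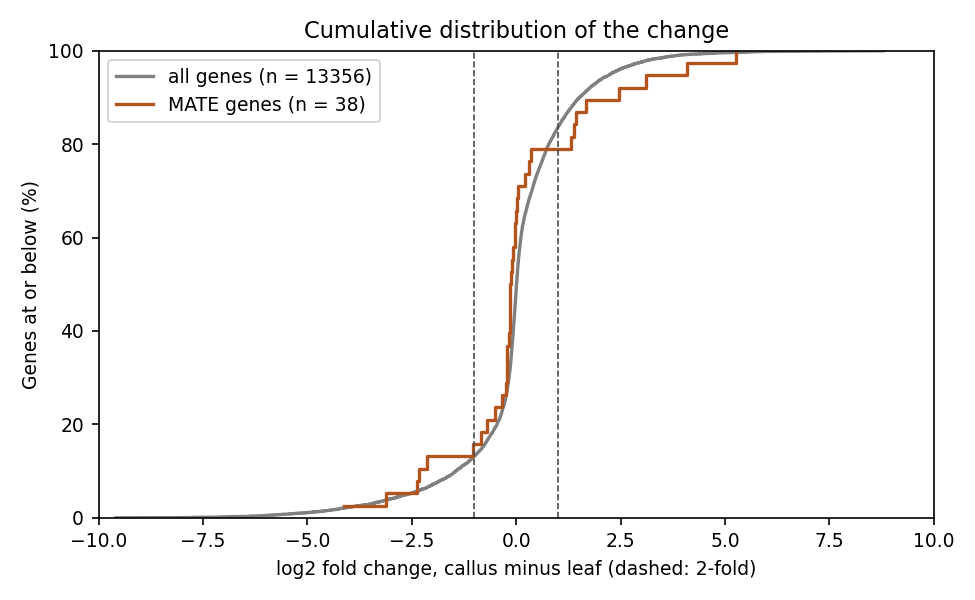
Cumulative share of genes (y axis, percent) at or below each log2 fold change, callus minus leaf (x axis), for the 38 measured MATE genes and for all 13356 genes; dashed lines mark a 2-fold change. Both curves pass close to 0 at their middle, with medians of -0.13 and 0.01, and 8 MATE genes lie to the right of the upper line and 6 to the left of the lower one.

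The widest difference in the family was that of AT1G11670, a subfamily II member with no assigned cargo in the tables used here. Its log2 signal was 9.26, 9.37 and 9.26 in the callus arrays and 4.25, 3.91 and 3.91 in the leaf arrays. All callus arrays were far above all leaf arrays, and the signal of 2 leaf arrays lay below the first quartile of those arrays. The mean was 9.30 ± 0.0667 in callus against 4.02 ± 0.193 in leaf (SD, n = 3), a 38.6-fold difference (log2 fold change 5.27 ± 0.110 SE, limma adjusted p = 1.13e-15). Because a dim signal holds background, this ratio need not equal the ratio of transcripts, and the same holds for AT5G38030 and AT2G04050 below.

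A second subfamily II member, AT5G38030, had signals of 8.14, 7.96 and 7.95 in callus and 3.82, 4.06 and 3.91 in leaf. All 3 of its leaf arrays lay below the first quartile, and the tissues were separated by 16.9-fold (log2 fold change 4.08 ± 0.113 SE, limma adjusted p = 2.90e-14). AT1G61890, which the study's annotation names as similar to AT1G11670, was already expressed above the array median in leaf, at 7.17, 7.20 and 6.95. Its callus signals were 8.78, 8.77 and 8.75, which lay 3.17-fold higher and closer together than those of any other called member (log2 fold change 1.66 ± 0.0833 SE, limma adjusted p = 4.30e-11). These 3 genes were 20.0% of the 15 measured in subfamily II, against 16.4% of all genes called higher. Their callus and leaf arrays did not overlap, as for 66.0% of all genes.

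In subfamily I, 4 of 12 measured genes rose (33.3%, against 16.4% of all genes) and 3 fell (25.0%, against 13.2%). The family members in this group that have been studied export toxic compounds or defence compounds from the cell, but the genes that rose carry no assigned cargo in the tables used here. AT1G71140 had signals of 8.17, 8.35 and 8.15 in callus and 5.13, 5.18 and 5.07 in leaf, so that the arrays of each tissue were tightly grouped. Its difference was 8.57-fold (log2 fold change 3.10 ± 0.0988 SE, limma adjusted p = 1.52e-13). AT2G04050 was more variable in callus, at 6.82, 6.66 and 6.21 against 3.93, 4.08 and 4.30 in leaf. The third callus array was its lowest, yet it was still well above the highest leaf array. Callus exceeded leaf by 5.50-fold (log2 fold change 2.46 ± 0.155 SE, limma adjusted p = 7.61e-10).

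The smaller rises of this subfamily were those of AT1G66760 and AT1G15170. AT1G66760, which the same annotation lists under the response to wounding, had signals of 6.93, 6.87 and 6.65 in callus and 5.55, 5.39 and 5.26 in leaf. No leaf array reached the lowest callus array, and the difference was 2.68-fold (log2 fold change 1.42 ± 0.118 SE, limma adjusted p = 2.42e-08). AT1G15170 gave 8.51, 8.57 and 8.50 in callus and 7.01, 7.14 and 7.27 in leaf. This gene was bright on all 6 arrays and 2.62-fold higher in callus (log2 fold change 1.39 ± 0.0842 SE, limma adjusted p = 4.69e-10). With TIP41 as reference both fell short of the fold threshold, at log2 fold changes of 0.83 for AT1G66760 and 0.80 for AT1G15170.

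DTX50 (AT5G52050), a subfamily IV transporter known for the efflux of abscisic acid, was the only called member of that subfamily. Of the 7 measured genes there, 14.3% were thus called, against 29.6% of all genes. It had signals of 6.88, 6.83 and 7.23 in callus and 5.44, 6.08 and 5.51 in leaf. The second leaf array stood above the other leaf arrays and below all callus arrays. DTX50 was 2.48-fold higher in callus (log2 fold change 1.31 ± 0.159 SE, limma adjusted p = 2.21e-06), and at 0.72 it fell short of the fold threshold with TIP41 as reference.

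**Figure D2:**
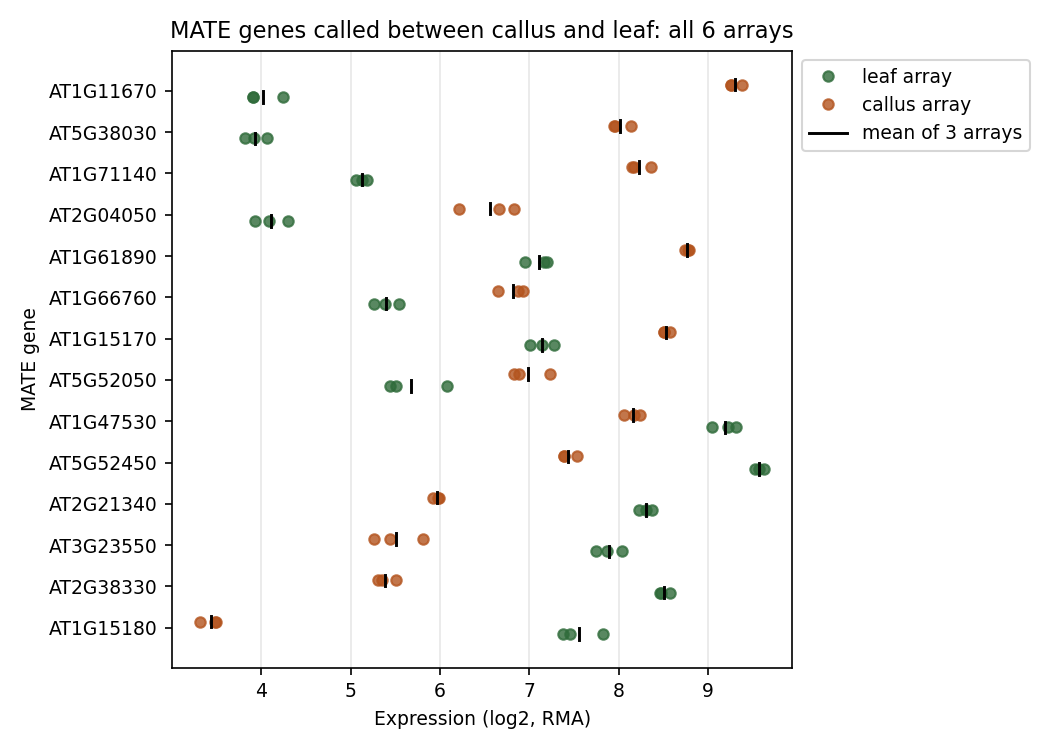
Log2 signal (RMA) of each of the 14 called MATE genes on every callus and leaf array, with bars for the group means; points are single arrays, 3 for each tissue. For every gene shown the callus and leaf points do not overlap, as for 66.0% of all genes. The widest gap is that of AT1G11670, at 9.26 to 9.37 in callus and 3.91 to 4.25 in leaf.

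The largest fall was that of AT1G15180, a subfamily I member without an assigned cargo. Its signals were 3.32, 3.49 and 3.49 in callus and 7.38, 7.45 and 7.82 in leaf. All callus arrays lay below the first quartile, so the gene was at a dim signal there and well above the array median in leaf. Leaf exceeded callus by 17.4-fold in signal (log2 fold change -4.12 ± 0.132 SE, limma adjusted p = 1.69e-13), and since the callus signal was not shown to lie above background, this need not be the ratio of transcripts.

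DTX18 (AT3G23550), also of subfamily I, exports coumaroylagmatine, an antimicrobial hydroxycinnamic acid amide. Its signals were 5.81, 5.26 and 5.44 in callus and 8.04, 7.75 and 7.87 in leaf. The tissues did not overlap, and leaf was 5.21-fold higher (log2 fold change -2.38 ± 0.132 SE, limma adjusted p = 1.52e-10). AT5G52450 gave 7.53, 7.39 and 7.39 in callus against 9.63, 9.52 and 9.57 in leaf. It was bright in both tissues, with leaf 4.39-fold higher (log2 fold change -2.14 ± 0.0718 SE, limma adjusted p = 2.95e-13).

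Subfamily III holds the citrate transporters and the chloroplast members related to EDS5, which exports salicylic acid from the chloroplast. Of its 6 listed genes 4 were measured, and 2 of these fell (50.0%, against 13.2% of all genes) while none rose (against 16.4%). With 4 genes nothing is read from these shares. AT2G38330 had signals of 5.30, 5.35 and 5.51 in callus and 8.47, 8.57 and 8.46 in leaf, with leaf 8.65-fold higher (log2 fold change -3.11 ± 0.0945 SE, limma adjusted p = 8.43e-14). EDS5H (AT2G21340), a homologue of EDS5 in the chloroplast envelope, gave 5.92, 5.99 and 5.98 in callus and 8.31, 8.23 and 8.37 in leaf. Both tissues were tightly grouped for EDS5H, and leaf was 5.06-fold higher (log2 fold change -2.34 ± 0.0868 SE, limma adjusted p = 9.98e-13). AT4G38380, also measured in this subfamily, was not called and its tissues overlapped. The photosynthetic markers moved in the same direction as the genes that fell. This holds for every gene called lower in callus, and their part in these values was not tested.

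AT1G51340, a subfamily III transporter that releases citrate from roots in aluminium tolerance, had signals of 4.11, 4.19 and 4.29 in callus and 4.77, 5.12 and 5.22 in leaf. The leaf arrays were all above the callus arrays, but the difference stayed below 2-fold (log2 fold change -0.84 ± 0.124 SE, limma adjusted p = 1.91e-05). With TIP41 as reference it was called lower, at -1.43. The subfamily III median was -1.59 over the 4 measured genes, against -0.13 in subfamily I, -0.14 in subfamily II and -0.02 in subfamily IV. With the hybridization controls as reference the medians of subfamilies I, II and IV were positive (0.13, 0.12 and 0.24) and with the poly-A controls likewise (0.63, 0.62 and 0.74). That of subfamily III was -1.33 and -0.83, and that of all genes 0.27 and 0.77. Each centring shifts all medians by the same amount, so these signs follow from the deposited medians. With TIP41 all 4 were negative, at -0.72, -0.73, -2.18 and -0.61 for I, II, III and IV. These are descriptions of 12, 15, 4 and 7 measured genes in subfamilies I, II, III and IV, and the difference between subfamilies was not tested.

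**Figure D3:**
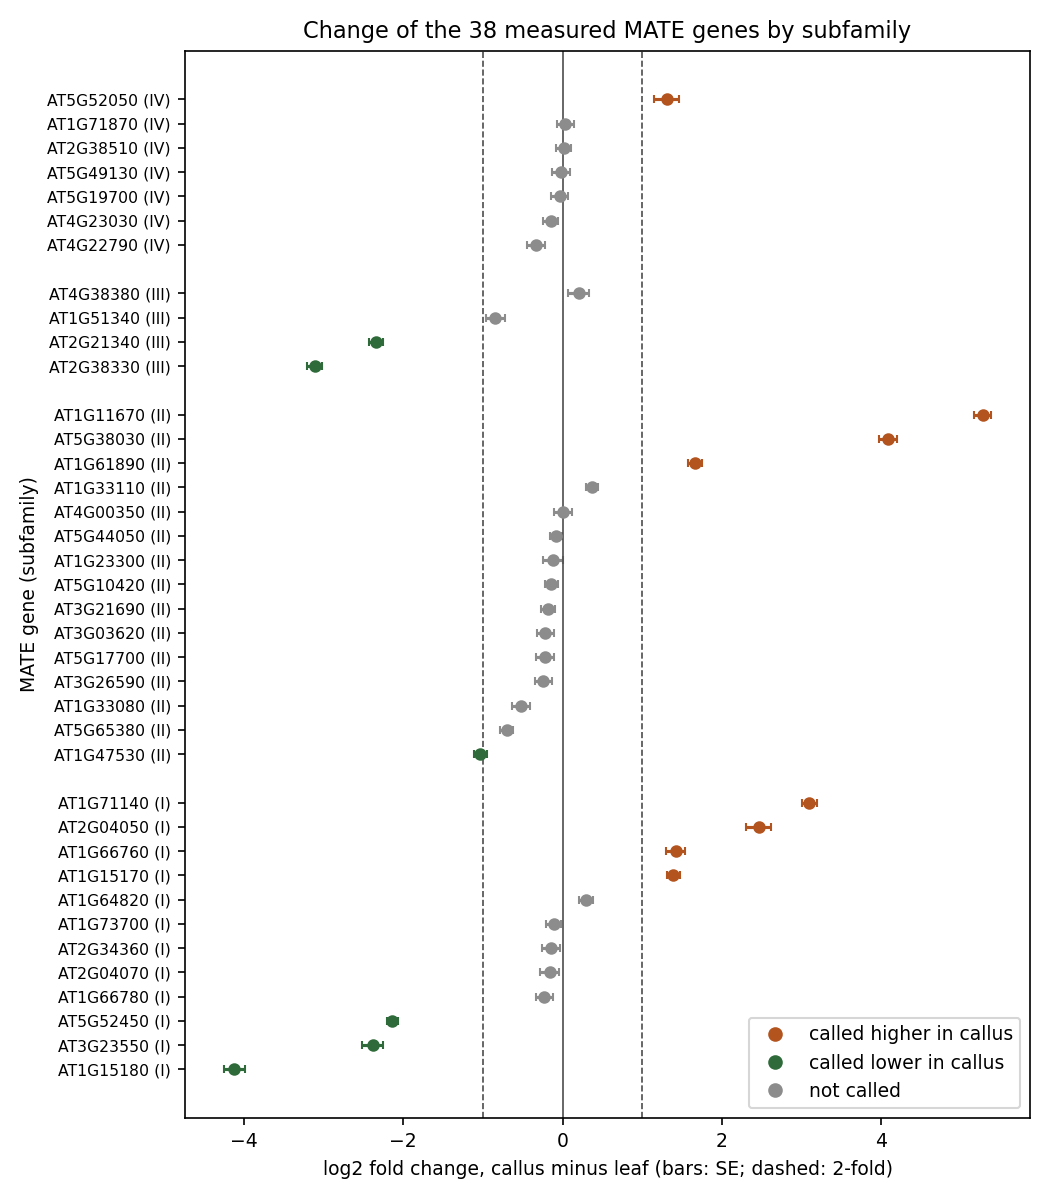
Log2 fold change, callus minus leaf, of each measured MATE gene (points with SE bars) in subfamilies I to IV, with a 2-fold change marked in each direction. Subfamilies I and II hold genes on both sides, with 4 higher and 3 lower in I and 3 higher and 1 lower in II, whereas subfamily III has 2 lower and subfamily IV has 1 higher. The measured genes number 12, 15, 4 and 7 in I, II, III and IV. Over all genes 16.4% were called higher and 13.2% lower.

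DTX33 (AT1G47530), a transporter of the vacuolar membrane tied to chloride uptake into the vacuole, was the called gene nearest the fold threshold. It had signals of 8.06, 8.24 and 8.17 in callus and 9.04, 9.31 and 9.22 in leaf. The groups did not overlap, and leaf was 2.05-fold higher (log2 fold change -1.03 ± 0.0804 SE, limma adjusted p = 1.08e-08). The call was lost without callus replicate 1, at -0.98, and without leaf replicate 2, at -0.97. It was also lost with the hybridization controls as reference, at -0.77, and with the poly-A controls, at -0.27.

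A further 6 members (15.8%) passed the adjusted p but not the fold threshold, AT1G51340 among them, against 31.5% of all genes. AT5G65380 gave 8.01, 7.93 and 8.00 in callus against 8.80, 8.74 and 8.51 in leaf (log2 fold change -0.70 ± 0.0824 SE, limma adjusted p = 1.48e-06). RHC1 (AT4G22790), which acts in the CO2 signalling of guard cells, gave 4.39, 4.48 and 4.68 in callus against 4.82, 4.80 and 4.93 in leaf (log2 fold change -0.33 ± 0.112 SE, limma adjusted p = 0.0173). Neither gene had overlapping tissues. The measured guard cell markers GC1 and FAMA, of 7 listed, changed by -3.88 and -2.35, and their part in the value of RHC1 was not tested. AT1G64820 was dim on all 6 arrays, with a log2 fold change of 0.30 ± 0.0914 SE (limma adjusted p = 0.0103). The remaining pair, AT1G33080 and AT1G33110, is described with its neighbours below.

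Many MATE genes lie next to each other in the genome. In the order of protein-coding genes of the TAIR10.1 RefSeq annotation, 20 of the 56 members fell into 6 clusters in which neighbouring members were separated by at most 4 other genes. In 3 of these clusters a called member lay beside another measured member with a different result. With 29.6% of all genes called, nothing is read from this count. AT1G15170 and AT1G15180, described above, are neighbours and were called in opposite directions, at log2 fold changes of 1.39 and -4.12.

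In the second such case, AT1G66760 was called higher at 1.42 whereas its neighbour AT1G66780 was not called. AT1G66780 gave 4.09, 4.22 and 4.36 in callus and 4.44, 4.60 and 4.31 in leaf, with overlapping tissues (log2 fold change -0.23 ± 0.109 SE, limma adjusted p = 0.0868). AT2G04070, in the cluster of AT2G04050, gave 4.58, 4.85 and 4.99 in callus and 5.01, 4.92 and 4.96 in leaf. Its tissues overlapped too (log2 fold change -0.16 ± 0.122 SE, limma adjusted p = 0.283), against a rise of 2.46 in AT2G04050.

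In the cluster of AT1G33080 and AT1G33110 neither gene reached 2-fold. AT1G33080 gave 5.69, 5.48 and 5.69 in callus and 6.08, 6.20 and 6.15 in leaf (log2 fold change -0.52 ± 0.112 SE, limma adjusted p = 0.000709). AT1G33110 gave 8.41, 8.20 and 8.33 in callus and 7.95, 7.95 and 7.94 in leaf (log2 fold change 0.37 ± 0.0769 SE, limma adjusted p = 0.000592). These signs were opposite as deposited, but with TIP41 as reference both were negative, at -1.11 and -0.22, and with the poly-A controls both were positive, at 0.24 and 1.13. Neighbouring family members can be close in sequence, so values of clustered genes are uncertain as far as a probe set responds to more than its own gene, which was not tested.

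Of the measured members without a call, AT3G26590 had more than one probe set. The brighter one gave a log2 fold change of -0.24 ± 0.102 SE (limma adjusted p = 0.0546), and the other gave -0.26 ± 0.104 SE (limma adjusted p over all probe sets = 0.0401), so both pointed the same way with small changes. The other 15 measured members had log2 fold changes between -0.22 and 0.20 with SEs of 0.0772 to 0.129, and their lowest limma adjusted p was 0.0768. These 15 remained after setting aside called members, members with an adjusted p under 0.05, members of clusters with a called member, and AT3G26590. Their small changes thus follow largely from that choice. The callus and leaf arrays overlapped for 12 of these 15, whereas they did not overlap for 66.0% of all genes. Below the first quartile on all 6 arrays were 4 of the 15, and 2888 of all 13356 genes. A difference in transcript would be hard to see there.

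**Figure D4:**
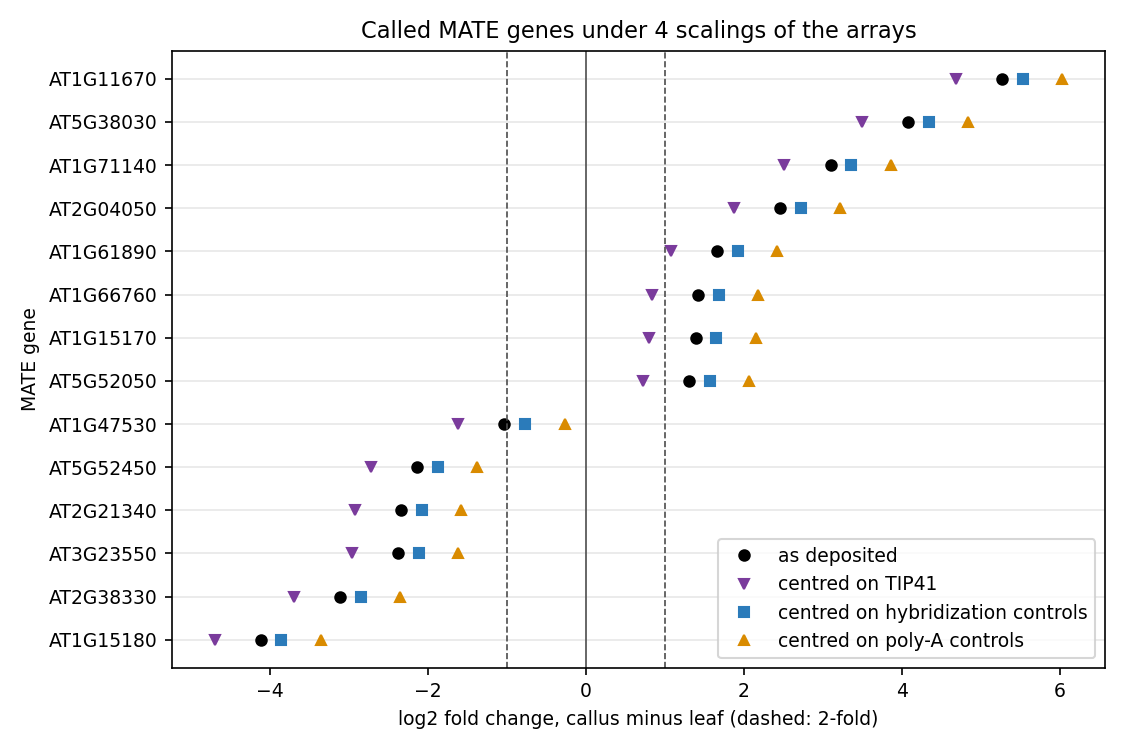
Log2 fold change, callus minus leaf, of the 14 called MATE genes as deposited and with each array centred on TIP41, on the hybridization controls or on the poly-A controls; dashed lines mark a 2-fold change. Each centring shifts all genes by the same amount, which was less than 2-fold, so no called gene could change direction. Genes near the threshold cross it, such as AT1G47530, at -1.03 as deposited and -0.27 with the poly-A controls.

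The histone mark H3K27me3, a repressive modification set by Polycomb proteins, was mapped in the same study on separate chromatin arrays. Of the 56 MATE loci, 2 were on the list of loci with decreased H3K27me3 in callus, AT1G11670 and AT1G66760, and 0 were on the list with increased H3K27me3. Both rose, by 5.27 and 1.42 on the log2 scale. On that list were thus 5.26% of the measured MATE genes, against 1.25% of all measured loci, and 70 of the 167 measured loci on the list (41.9%) were called higher in callus. With 2 members on the list nothing is read from these shares. The other 6 MATE genes that rose, AT5G38030 with its 16.9-fold change among them, were on neither list.

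Genes that act beside MATE transporters were counted by the same rule. None of the 11 listed plasma membrane proton pump genes was measured. Of 29 listed subunits of the vacuolar proton pump (V-ATPase) 9 were measured, and 4 of these were lower (44.4%, against 13.2% of all genes) and 0 higher (against 16.4%), with a median of -0.81, but with TIP41 as reference 5 were lower, with the hybridization controls 1, and with the poly-A controls 0, where 2 were instead higher. All genes moved the same way under these scalings, with 20.9%, 11.3% and 8.21% lower and, with the poly-A controls, 34.1% higher. The called subunits were VHA-e2 (log2 fold change -1.40), VHA-a3 (-1.13), VHA-D (-1.13) and VHA-e1 (-1.01), which were 2.02-fold to 2.64-fold higher in leaf, with limma adjusted p of 5.55e-13, 2.46e-09, 3.39e-10 and 2.19e-10. In the pathways whose products MATE transporters carry, few genes were measured. Of 13 flavonoid genes the measured 2, DFR (-0.04) and BAN (0.02), were not called, and neither was the iron regulator PYE (0.21, limma adjusted p = 0.0598), the 1 measured of 19 iron and citrate genes. SAG101, a partner of EDS1 in defence and the 1 measured of 14 salicylic acid genes, was 0.43 higher in callus (limma adjusted p = 0.00242), below 2-fold.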

How the data were processed

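For each array the table deposited by the authors gives a log2 value per probe set, and the submitters' processing notes name RMA and Partek, with versions and array build not given in the sources used here. RMA brings all arrays to nearly the same distribution, so these values do not show whether cells held more or less RNA in total, and it gives no detection call; the number of arrays limits the precision. No further columns were present (0). Of 22810 probe sets, 64 were controls, 13513 had 1 gene in the platform's gene table, 503 had several and 8730 were not listed there. Where a gene had several, its brightest probe set by the mean of the 6 arrays was kept. The comparison used limma (version 3.58.1, R 4.3.3) with lmFit and a trended eBayes, and Benjamini-Hochberg adjustment over 13356 genes. Calls required an adjusted p under 0.05 and a change over 2-fold. Fold changes are callus over leaf, or leaf over callus for genes lower in callus.

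Members and gene lists were chosen with earlier results of these data known. Subfamilies and roles come from general knowledge of the family, and the TAIR10.1 RefSeq table, used for gene order and names alone, gives none of the 38 measured members a symbol. Named with values were called members, members with a known role and members of a cluster with a called member; the rule's naming of closest proteins could not be applied. AT5G65380, AT1G33080, AT1G33110, AT1G64820 and AT3G26590 were added after their values were seen. H3K27me3 loci were taken from the study's lists. Alternatives covered thresholds, moderation, scaling, filters, probe set choice, a replicate block and leaving out each array. The fit was run on simulated callus and leaf arrays of 13356 genes. It recovered 100 of 100 planted changes of 1.5 and 100 of 100 of -3 (log2), with 0 false calls. The simulated noise was independent and normal, the other genes did not differ, and all planted changes exceeded the fold threshold. This checks that the code runs as intended and cannot speak for the calls in the real arrays.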

Additional observations from a re-analysis of the deposited data

Results flagged for a closer look

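Probe sets shared by more than one gene were used in no comparison, and 5 of them cover MATE members that have no probe set of their own. Of these, 2 were higher in callus than in leaf by more than 2-fold, and another was lower, at a log2 fold change of -2.77. The lower one is described under the other observations. Among genes with a probe set of their own 16.4% were called higher and 13.2% lower. With 5 probe sets nothing is read from these counts. The probe set shared by the neighbours AT2G04090 and AT2G04100 had signals of 7.74, 7.62 and 7.09 in callus and 4.17, 4.37 and 4.11 in leaf, a log2 fold change of 3.27 ± 0.155 SE (limma adjusted p over all probe sets = 1.29e-11). The probe set shared by AT4G21903 and AT4G21910 gave 6.92, 6.89 and 6.88 in callus and 5.93, 5.84 and 5.76 in leaf, a log2 fold change of 1.05 ± 0.102 SE (limma adjusted p over all probe sets = 1.18e-07). Which gene of each pair gave the signal cannot be told.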

How the results depend on the processing

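The 8 rises and 6 falls among 38 measured MATE genes were also found at an adjusted p under 0.01, without the intensity trend, after repeated quantile normalization, with other probe set choices and with adjustment over all probe sets. The stricter p could not alter these counts, since the highest limma adjusted p among called members was 2.21e-06. The probe set choices hardly could, since every called member had a single probe set, which each choice kept. Without a fold threshold 10 rose and 10 fell, at 1.5-fold 8 and 8, and at 4-fold 4 and 5. Over all genes, 29.6% were called at 2-fold and a further 31.5% passed the adjusted p alone. Among the members these were 36.8% and a further 6 of 38. The shares of all genes at 1.5-fold and 4-fold were not counted. Leaving out 1 array at a time gave 8 rises and 5 to 6 falls, with the members' median between -0.148 and -0.0719. Centring on TIP41 gave 5 rises, 9 falls and a median of -0.72, on the hybridization controls 8, 5 and 0.13, and on the poly-A controls 10, 5 and 0.63; the median of all genes moved to -0.58, 0.27 and 0.77, so the sign of the members' median followed the scaling. With genes below the median signal left out, 17 members were measured, with 7 rises, 5 falls and a median of -0.18, against 0.17 over all genes kept. This filter uses the mean of all 6 arrays, so members dim in leaf, such as AT1G11670, passed it through their callus signal. The share called among all genes kept was not counted, so nothing is read from these counts. Same-numbered arrays did not deviate together (r = -0.108, 0.0719 and -0.0426). With 3 arrays per group, already scaled by RMA, this cannot decide whether the numbers pair the samples. The replicate block gave 8 rises, 6 falls and a median of -0.13. No called member changed sign in any setting run, but only repeated quantile normalization and leaving out an array could have changed it. The scalings shift all genes by less than the fold threshold, and the remaining settings leave the fold changes of called members as they are. Of the 38 members, 6 changed sign with TIP41, 14 with the hybridization controls and 17 with the poly-A controls, and up to 2, with deposited changes of at most 0.0365 in size, did so on leaving out an array or repeating the quantile normalization. Among members given with values above, these were with TIP41 AT1G64820 (-0.29) and AT1G33110 (-0.22), with the hybridization controls AT2G04070 (0.10), AT1G66780 (0.0333) and AT3G26590 (0.0210), and with the poly-A controls AT2G04070 (0.60), AT1G66780 (0.53), AT1G33080 (0.24), AT5G65380 (0.0575), AT3G26590 (0.52) and AT4G22790 (0.43). Signals below an array's first quartile limit what can be said of dim members.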

Other observations

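The probe set that AT2G04080 shares with AT2G04066, a locus outside the list, was lower in callus, at 4.72, 4.73 and 4.73 against 7.55, 7.43 and 7.51 in leaf (log2 fold change -2.77 ± 0.105 SE, limma adjusted p over all probe sets = 7.22e-13). It lies in the cluster of AT2G04050, where the called member and the shared probe set of AT2G04090 and AT2G04100 were higher in callus. The shared probe sets of AT1G33090 with AT1G33100 and of AT1G15150 with AT1G15160 had log2 fold changes of 0.01 and -0.15, with limma adjusted p over all probe sets of 0.929 and 0.325.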
